A study of Mus musculus with 6 samples.

Results

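Tetraspanins are small membrane proteins, and the mouse genes of the family were followed here in melanocyte stem cells, the reserve of pigment cells in the hair follicle. The members were chosen by name: every gene whose symbol is Tspan followed by digits, together with Cd9, Cd37, Cd53, Cd63, Cd81, Cd82 and Cd151. This gave 27 genes of the 21368 that could be named on the arrays, and all 27 had at least 1 probe. The family itself was selected on measured values, since the low signal of Tspan12 on the Tg arrays was already known, and the probe read for a gene was chosen by its mean signal over all arrays. The p-values of the members therefore describe them and do not test the family. The K14-SCF Tg group came from male mice with a transgene for stem cell factor (SCF) under the keratin promoter K14, and the WT group from male mice without it. K14 is active in basal keratinocytes, so the transgene belongs to keratinocytes, and SCF is what the receptor KIT on pigment cells binds. Cells of both groups were taken from skin suspensions by green fluorescence and low side scatter. The labels used here give no age, strain or name for the fluorescent reporter. Each group had 3 samples, each on its own 1-colour array, and the labels do not say that they were separate animals, so the spread behind each p-value is that among these samples and may be technical.

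A tetraspanin crosses the membrane several times and carries a small and a large loop outside the cell, the large one held by disulfide bonds. Its known work is to organise other proteins: tetraspanins bind integrins, immunoglobulin-family proteins, proteases and receptors sideways in the membrane and set where these go and with whom they assemble. CD63 sits mainly in late endosomes and lysosomes, and in pigment cells it helps to sort the amyloid protein PMEL into melanosomes. Others, such as CD37 and CD53, belong to white blood cells.

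Levels are log2 ratios of a probe's processed signal to the 75th percentile of its array, and a gene is read at its brightest tested probe. Signal depends on the probe as well as on the transcript, so levels of different genes are not ranked against each other. A log2 fold change is K14-SCF Tg minus WT, from a limma fit over the 47709 probes that at least 3 of the 6 arrays measured well above background, with Benjamini-Hochberg adjustment over all of them and a threshold of 0.05. Of the 55681 probes, each Tg array measured 46722 to 48520 well above background and each WT array 43636 to 47811, and no probe was saturated. Precision is limited by there being 3 arrays in each group.

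The sorted cells carried the pigment lineage on every array. All 13 melanocyte markers other than Tspan10 were above background on the 3 Tg and the 3 WT arrays, and their summed signal lay between 283 and 334 times the 75th percentile in Tg and between 296 and 382 times in WT. Other skin cell types left signal as well. The 12 fibroblast markers (11 above background on all arrays of each group, none below it throughout) summed to between 11.6 and 23.7 in Tg and between 29.5 and 74.6 in WT, without overlap, and the 4 collagen genes among them carried most of this sum (8.01 to 21.1 in Tg and 25.0 to 68.9 in WT). Of the 12, limma called 0. Fold changes were negative in 7, of which 5 had an unadjusted p under 0.05 (2.56% of all tested genes were lower at that level). They were positive in 5, among them Fap (2.19, SE 0.91) and Pdgfra (1.27, SE 0.99). All Tg arrays lay below all WT arrays in 4 of the 12 and above them in 1, Fap (5.41% and 5.13% of all tested genes). Leukocyte markers (12 of 14 above background on all Tg arrays, 11 on all WT arrays) summed to between 4.11 and 6.30 in Tg and between 4.30 and 8.33 in WT. Endothelial markers (8 of 10 above background on all Tg arrays, 9 on all WT arrays) summed to between 2.61 and 3.43 in Tg and between 3.08 and 6.31 in WT. Mast cell markers, of which 6 had a probe, summed to between 0.59 and 0.69 in Tg and between 0.32 and 0.65 in WT, with Fcer1a above background on no array. Keratinocyte markers (13 of 14 on all Tg arrays, 11 on all WT arrays) summed to between 136 and 147 in Tg and between 117 and 148 in WT, and Schwann cell markers (8 of 10 on all arrays of each group) to between 88.1 and 91.3 in Tg and between 76.9 and 89.3 in WT. The keratinocyte sum was almost wholly the Trp63 probe: the other 13 genes summed to between 6.29 and 15.9 in Tg and between 7.05 and 22.9 in WT. In bulk RNA, fewer cells of a type and less RNA per cell cannot be told apart.

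**Figure D1:**
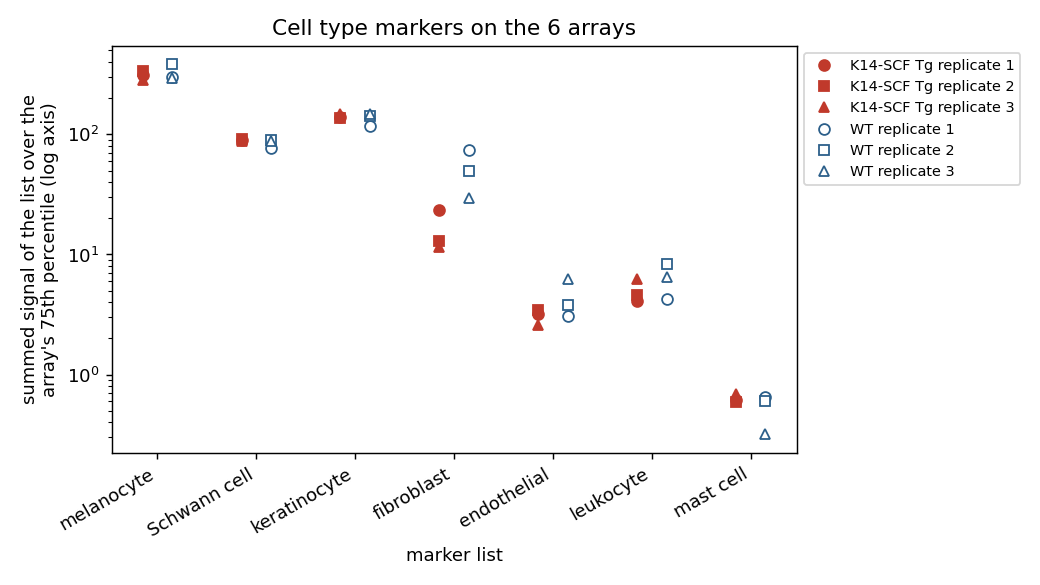
Summed signal of each marker list relative to the array's 75th percentile (log axis), with the K14-SCF Tg arrays as filled and the WT arrays as open symbols, and 1 symbol shape per replicate number. The fibroblast list is the 1 list whose groups do not overlap, at 11.6 to 23.7 in Tg and 29.5 to 74.6 in WT.

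Across the family no member passed the test. Of the 27 genes, 22 were above background on all 6 arrays, 26 were tested, and Tspan8 was not tested because its probe was above background on 0 arrays. Limma called 0 members higher and 0 lower at an adjusted p under 0.05, where it called 0.00544% of all 18368 tested genes higher and 0% lower. At an unadjusted p under 0.05, 1 member was higher (Tspan11) and 1 lower (Tspan12), against a background of 2.85% of genes higher and 2.56% lower. All Tg arrays lay above all WT arrays in 1 member (background 5.13%) and below them in 4 members, Tspan12, Tspan3, Tspan4 and Tspan14 (background 5.41%). Log2 fold changes were negative in 19 of the 26 tested members, against 51.4% of all tested genes, with a median of -0.19 in the family and -0.01 over all tested genes. The fold change was smaller than its standard error in 13 members (background 64.2%) and at least 1 in size in 5 (background 11.3%), and the 95% interval held 0 in 24. Adjusted p-values of the members ran between 0.221 and 1.00 (limma).

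**Figure D2:**
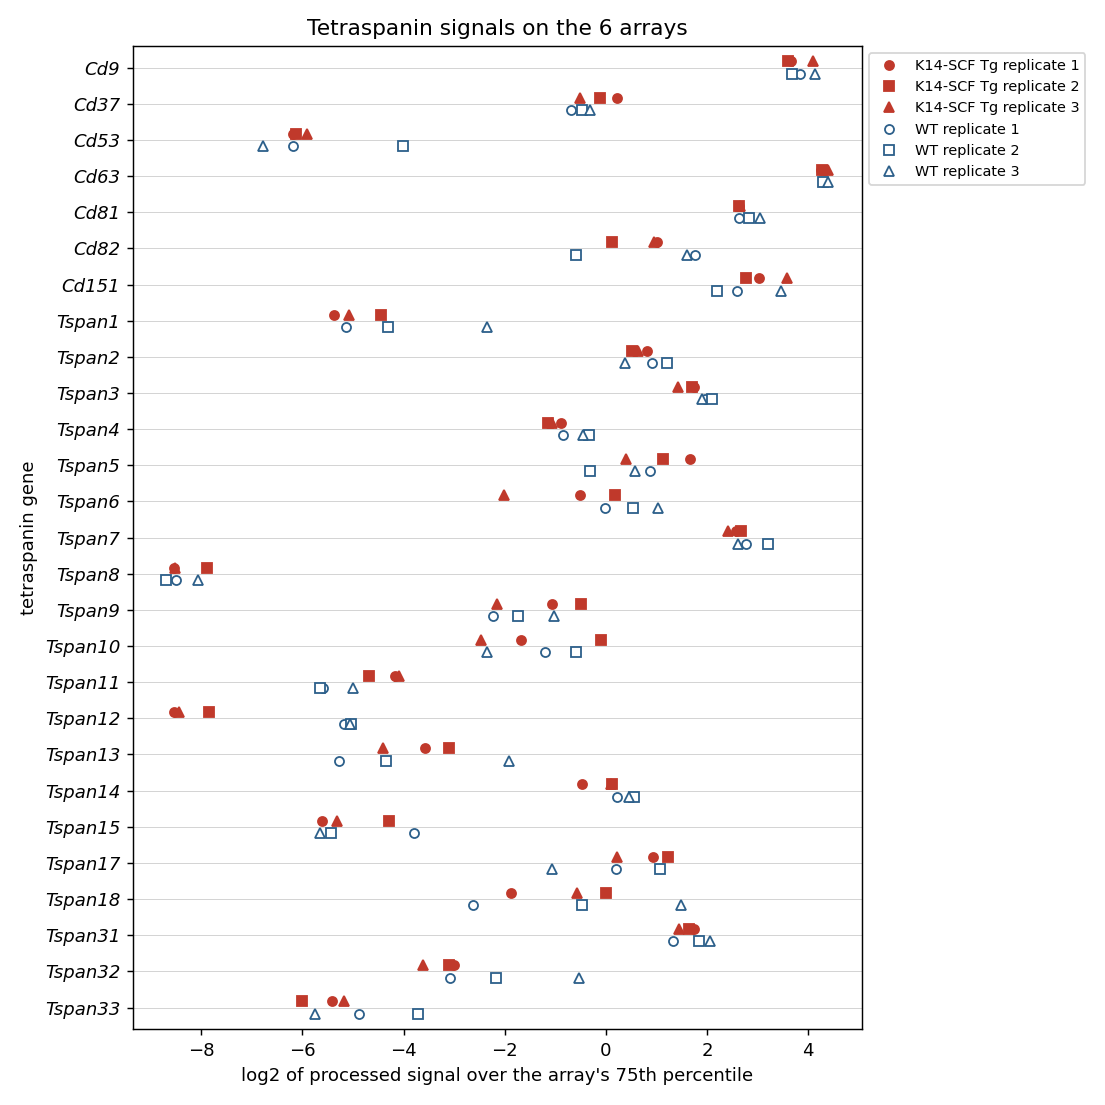
Log2 signal of each of the 27 tetraspanin genes (rows) over the array's 75th percentile, with K14-SCF Tg arrays as filled symbols above the open symbols of the WT arrays, and 1 symbol shape per replicate number. Tspan12 lies at -8.53 to -7.85 in Tg and at -5.18 to -5.05 in WT, while Cd63 lies between 4.25 and 4.40 on all 6 arrays.

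**Figure D3:**
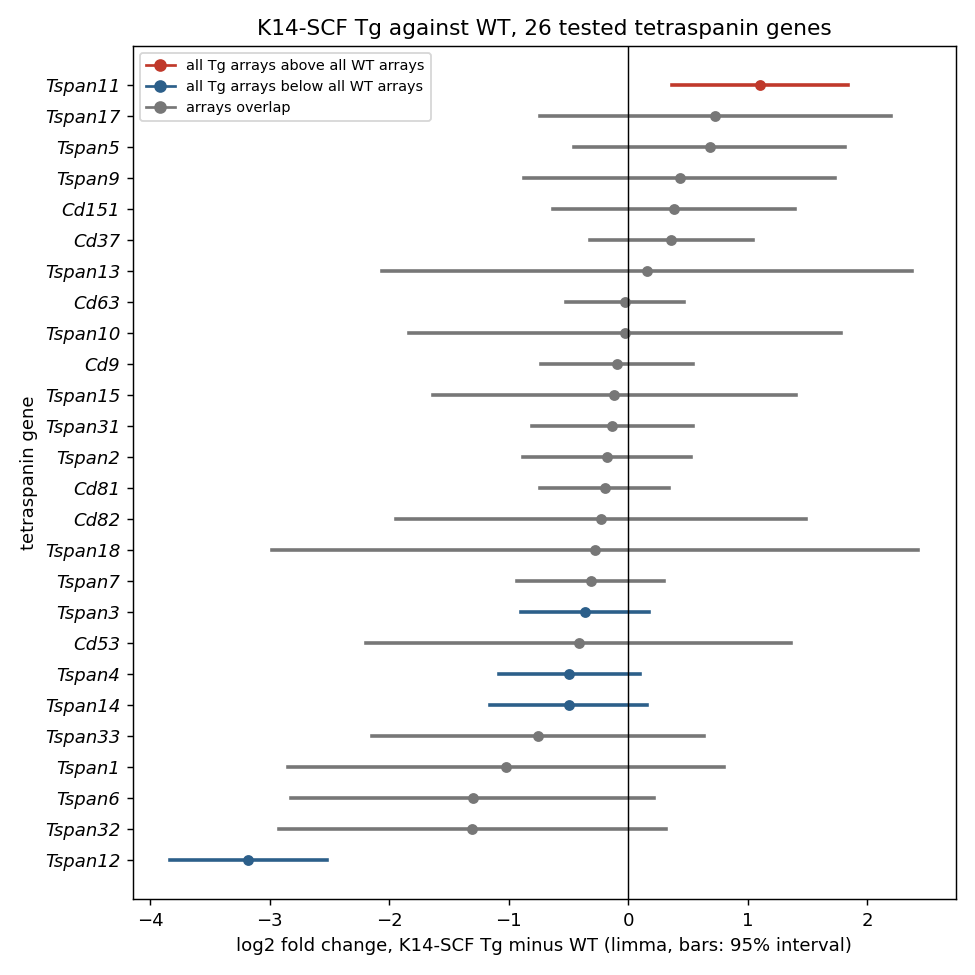
Log2 fold change (K14-SCF Tg minus WT, limma) of the 26 tested tetraspanin genes, with bars for the 95% interval and colour for whether the arrays of the groups overlap. The intervals of Tspan11 and Tspan12 lie apart from 0, and those of the other 24 members include it.

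Tspan12 encodes a tetraspanin that binds the receptor Frizzled 4 and strengthens its response to the ligand Norrin, a role known from the vessels of the retina. Its probe gave log2 levels of -8.53, -7.85 and -8.44 on the Tg arrays, against -5.18, -5.05 and -5.06 on the WT arrays. The processed signals behind these levels were 4.37, 7.32 and 4.14 in Tg and 43.4, 48.9 and 42.3 in WT. Every WT array was well above background and no Tg array was, so that the groups stood apart and the Tg level was not measured. The lowest signal well above background was -6.58 to -6.23 by Tg array, and the WT level of Tspan12 was 2.51-fold above it. That signal is a reference and not a strict bound, since probes above it can go undetected. Cd53, at -6.19 to -5.90 in Tg, was above background on 2 Tg arrays only. The fitted log2 fold change was -3.18 (SE 0.27, 95% interval -3.83 to -2.52), which did not pass (limma, adjusted p = 0.221). Tspan12 entered the fit through its 3 WT arrays alone, and this pattern drew attention to the family. It is shared by 0.0599% of all tested genes, and the reverse by 0.294%, shares from which nothing is read here.

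Tspan12 has 1 probe, so no other measurement of it was at hand. Normexp correction of the median signals, with an offset of 50 and quantile normalization, gave -0.78 (limma, adjusted p = 0.638, within a range of 0.134 to 0.726 over the alternatives). An offset of that size shrinks differences between signals as dim as these (4.14 to 48.9). This value therefore does not tell how far the difference rests on background. Leaving out any 1 array gave between -3.39 and -3.05. The summed signal of the fibroblast markers also lay lower on every Tg array (11.6 to 23.7) than on any WT array (29.5 to 74.6), although 5 of these 12 genes had positive fold changes, and their part in the Tspan12 result was not tested.

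The genes of the Norrin receptor complex were measured beside it, and 0 of the 7 in this list were called in either direction. Fzd4, the receptor itself, stood at -5.44 ± 2.83 in Tg and -5.26 ± 2.31 in WT (SD, n = 3 each) and was above background on 2 Tg arrays and 1 WT array. Its difference of -0.18 on the log2 scale carried an SE of 1.74. Lrp5, the coreceptor, was at 1.42 ± 0.08 in Tg and 1.36 ± 0.13 in WT (log2 fold change 0.06, SE 0.21), and Ndp, the gene of Norrin, at -2.91 ± 0.56 in Tg and -2.74 ± 0.62 in WT (-0.17, SE 0.44). The smallest p-values of the list belonged to Lef1, a transcription factor and target of Wnt signals (1.90, SE 1.26, with 1.03 to 3.11 when 1 array was left out and 0.79 for the mean of its probes), and to the coreceptor gene Lrp6 (0.22, SE 0.30). The list's median log2 fold change was 0.02.

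Tspan11, a member whose role is little described, was the member with all Tg arrays above all WT arrays. Its probe gave -4.17, -4.69 and -4.10 on the Tg arrays and -5.60, -5.66 and -5.01 on the WT arrays. All 6 arrays were above background, though the WT levels lay close to the lowest level well above background (between -6.36 and -5.75 by array). The log2 fold change was 1.10 (SE 0.30, 95% interval 0.36 to 1.84) and did not pass (limma, adjusted p = 0.700). With normexp, its offset of 50 and quantile normalization together it was 0.48 (limma, adjusted p = 0.940, within a range of 0.598 to 1.00 over the alternatives). The offset shrinks differences between dim signals.

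Among members without overlap, the 95% intervals of Tspan3, Tspan4 and Tspan14 held 0. Those of Tspan12 and Tspan11 lay apart from 0, on opposite sides. Upstream sequences of Tspan12 and Tspan11 were read from RefSeq (GRCm38.p6), with Tspan10 beside them as the member best known from pigment cells. Each is the 250 bases before the annotated start, on the gene's strand, with capitals marking CATGTG (the core of the M-box bound by MITF), CACGTG or TATAAA on either strand. These genes were chosen after their values were seen.
Tspan12 (chr6:21852534-21852783, minus strand): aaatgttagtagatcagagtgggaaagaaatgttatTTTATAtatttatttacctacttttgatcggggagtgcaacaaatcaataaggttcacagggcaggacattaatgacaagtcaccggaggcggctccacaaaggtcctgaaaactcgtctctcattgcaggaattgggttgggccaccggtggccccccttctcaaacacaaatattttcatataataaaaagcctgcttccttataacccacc
Tspan11 (chr6:127887372-127887621, plus strand): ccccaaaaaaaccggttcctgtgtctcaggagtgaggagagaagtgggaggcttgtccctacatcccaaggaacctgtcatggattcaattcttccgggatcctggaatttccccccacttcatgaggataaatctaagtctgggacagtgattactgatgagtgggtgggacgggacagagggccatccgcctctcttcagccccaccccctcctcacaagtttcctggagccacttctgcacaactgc
Tspan10 (chr11:120442381-120442630, plus strand): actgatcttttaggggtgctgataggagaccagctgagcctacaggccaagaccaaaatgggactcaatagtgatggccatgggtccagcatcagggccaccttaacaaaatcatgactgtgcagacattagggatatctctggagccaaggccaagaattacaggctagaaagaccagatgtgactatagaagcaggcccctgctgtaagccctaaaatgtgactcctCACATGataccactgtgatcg
In Tspan12 the marked letters are TATAAA on the opposite strand, beginning 214 bases before the start, a motif found in 12.4% of all 32851 windows. In Tspan10 they are CATGTG on the opposite strand, 21 bases before the start, and 12.3% of all windows hold it. The Tspan11 window holds none of these letters. Of the 36 windows of 26 members in the table, 4 hold CATGTG (Cd9, Tspan10, Tspan3 and Tspan9), 2 hold CACGTG (Cd37 and Tspan4, with 6.02% of all windows) and 1 holds TATAAA.

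**Figure D4:**
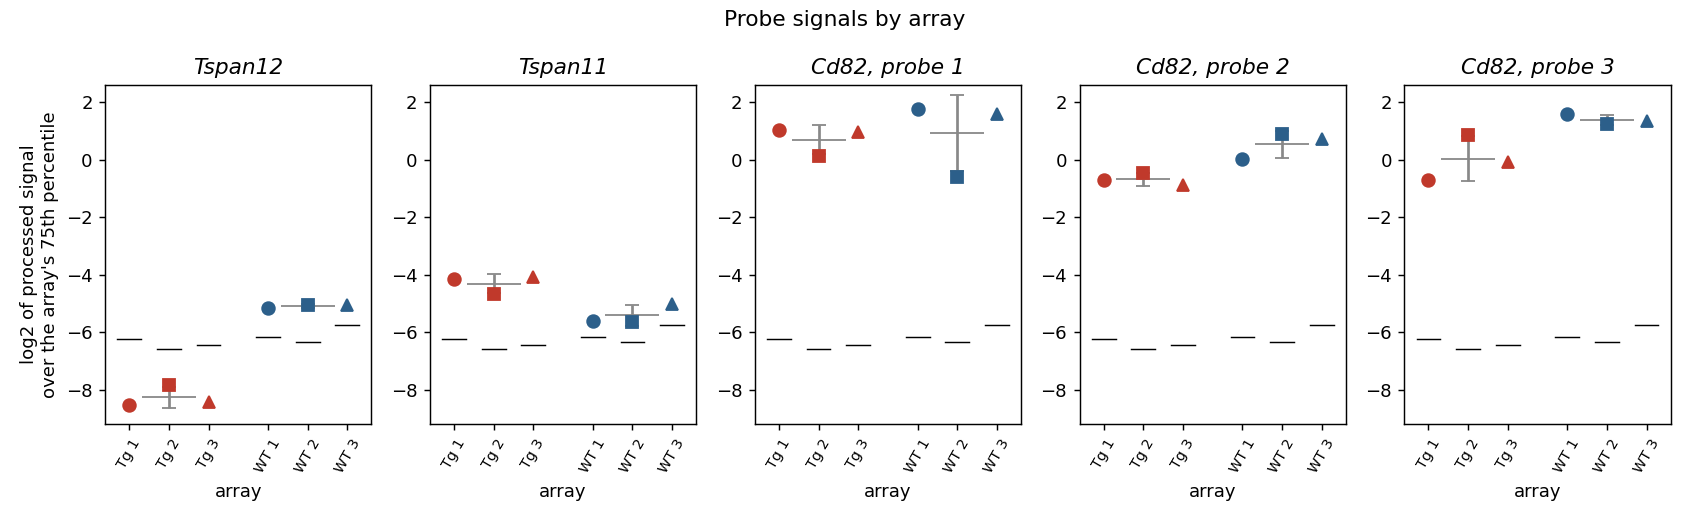
Log2 signal over the array's 75th percentile on each array for the probes of Tspan12, Tspan11 and Cd82, with grey marks for the mean and SD per group (n = 3) and a short black line for the lowest level well above background on that array. Tspan12 lies below that line on every Tg array and above it on every WT array, and the Cd82 probes differ in whether the groups overlap.

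The tetraspanins of the cell surface, Cd9, Cd81, Cd151 and Cd82, were above background on all arrays, and 0 of the 4 were called. Cd9, which is needed on the egg for fusion with sperm and which many cells carry, gave 3.67, 3.60 and 4.10 in Tg and 3.85, 3.68 and 4.14 in WT. Cd81, which many cell types carry, gave 2.64, 2.63 and 2.65 in Tg and 2.63, 2.83 and 3.05 in WT. These levels overlapped between the groups, with log2 fold changes of -0.10 (95% interval -0.73 to 0.54) for Cd9 and -0.20 (-0.74 to 0.34) for Cd81.

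Cd151, which binds the integrins that hold cells to laminin, gave 3.02, 2.78 and 3.59 in Tg and 2.59, 2.20 and 3.46 in WT. Its log2 fold change was 0.38 (95% interval -0.63 to 1.40), and its other probe gave -0.02 (SE 0.26). Replicate 3 was the highest of its group for both Cd9 and Cd151. The replicate 3 arrays lie in row 2 of the slide, where Cd9, Cd63 and Cd151 were above every array of row 1 and Tspan10 below (12.3% of all tested genes were above and 11.5% below). Such a separation of row 2 held for 4 of the 26 tested members and for 23.8% of all tested genes.

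Cd82, known as a suppressor of metastasis, had 3 probes to the same transcript that did not give the same picture. The brightest gave 1.02, 0.13 and 0.96 in Tg and 1.77, -0.60 and 1.60 in WT, with WT replicate 2 lowest and the groups overlapping (log2 fold change -0.23, SE 0.70). The dimmest gave -0.72, -0.45 and -0.90 in Tg and 0.01, 0.88 and 0.70 in WT (-1.22, SE 0.31). The third gave -0.70, 0.85 and -0.07 in Tg and 1.59, 1.25 and 1.33 in WT (-1.36, SE 0.43). In these last probes every Tg array lay below every WT array, yet neither passed (limma, adjusted p = 0.666 for the dimmest and 0.807 for the third). The mean of the probes gave -0.94 (limma, adjusted p = 0.767). At the brightest probe, leaving out WT replicate 2 gave -0.99 and leaving out WT replicate 1 gave 0.20. The part of the fibroblast markers, whose sum but not every gene was lower in Tg, in the Cd82 values was not tested.

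Partners of these proteins were taken from lists of integrins and of proteins that bind CD9 and CD81 directly, and 0 of the 9 integrin genes and 0 of the 8 tested direct partners were called. Ptgfrn and Igsf8 encode the immunoglobulin-family proteins that CD9 and CD81 bind most tightly. Ptgfrn was at 0.60 ± 0.20 in Tg and -0.17 ± 0.28 in WT (log2 fold change 0.76, SE 0.25), and Igsf8 at -0.75 ± 0.09 in Tg and -0.25 ± 0.38 in WT (-0.50, SE 0.27; SD, n = 3 each). The groups did not overlap in either gene, and the signs were opposite. Over all 48 tested partner genes, all Tg arrays lay above all WT arrays in 4 and below them in 4 (5.13% and 5.41% of all tested genes). Neither passed (limma, adjusted p = 0.844 for Ptgfrn and 0.946 for Igsf8). Cd46 was below WT on every Tg array (-2.06, SE 0.65; limma, adjusted p = 0.806) and above background on 2 Tg and 3 WT arrays. Of the integrins, Itga2, a collagen-binding chain, had the smallest p, with -3.22 ± 1.20 in Tg and -6.22 ± 1.21 in WT (log2 fold change 3.01, SE 0.83; limma, adjusted p = 0.705). Itga3, a laminin-binding partner of CD151, gave 0.49 (SE 0.30), with overlapping groups. In Itga6 (-0.27, SE 0.21) and Itgb4 (-0.68, SE 0.52) all Tg arrays lay below all WT arrays. Fold changes were positive in 4 of the 9 integrin genes and negative in 5. Itga2 was above background on 3 Tg and 2 WT arrays, so its fold change leans on the background. Normexp with quantile normalization, whose offset of 50 shrinks differences between dim signals, gave 1.44. The same setting gave -0.88 for Cd46. Median log2 fold changes were -0.18 for the integrins and -0.09 for the direct partners.

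Cd63 had the narrowest range over the 6 arrays of the members printed by array. Its levels were 4.25, 4.28 and 4.39 in Tg and 4.30, 4.30 and 4.40 in WT, and the groups lay on top of each other. The log2 fold change of -0.02 had a 95% interval of -0.52 to 0.47. Of 13 genes of exosome formation and of CD63 cargo sorting, 0 were called, with a median of 0.06. The smallest p-values were those of Rab27a, which moves melanosomes and exosomes to the cell's edge (-0.79, SE 0.50), and Tsg101, a subunit of the sorting complex at endosomes (-0.46, SE 0.34).

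The TspanC8 group holds the tetraspanins that carry the protease ADAM10 out of the endoplasmic reticulum and steer which substrates it cuts. All 6 were tested and 0 called, with 2 positive and 4 negative fold changes and a median of -0.07. Tspan10, which is known from pigment cells of skin and eye, gave -1.67, -0.10 and -2.46 in Tg and -1.21, -0.60 and -2.35 in WT. Within each group replicate 2 was highest and replicate 3 lowest, so that the spread inside a group exceeded any difference between them (log2 fold change -0.03, 95% interval -1.83 to 1.78).

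Tspan14 gave -0.48, 0.12 and 0.11 in Tg and 0.22, 0.57 and 0.46 in WT. The Tg arrays all lay below the WT arrays, by a log2 fold change of -0.50 (SE 0.27) that did not pass (limma, adjusted p = 0.946). Tspan5 (0.68, SE 0.46) and Tspan17 (0.73, SE 0.60) were the members of the group with positive values, and the second probe of each was positive as well (1.16, SE 0.91 for Tspan5 and 0.62, SE 1.05 for Tspan17). With 1 array left out in turn, Tspan5 ran between 0.34 (without WT replicate 2) and 1.01, and Tspan17 between 0.16 (without WT replicate 3) and 1.23. Tspan15, which favours cleavage of N-cadherin by ADAM10, was above background on 3 Tg and 2 WT arrays (-0.12, SE 0.62), as was Tspan33 (-0.76, SE 0.56), known from erythroid and B cells.

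The protease and its substrates gave no call, with 0 of 11 genes in either direction and a median of 0.04. Adam10 stood at 3.64 ± 0.12 in Tg and 3.60 ± 0.11 in WT (SD, n = 3 each), and the log2 fold change was 0.04 (SE 0.21). The substrate genes with the smallest p-values were Notch1 (0.45, SE 0.26) and the ephrin receptor gene Epha2 (0.31, SE 0.20). Both had all Tg arrays above all WT arrays, as had 5.13% of all tested genes. Neither passed (limma, adjusted p = 0.949 for Notch1 and 0.958 for Epha2).

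The tetraspanins of white blood cells were measured at different distances from the background. Cd37, a B cell tetraspanin, was above background on all arrays, with -0.13 ± 0.37 in Tg and -0.49 ± 0.19 in WT (log2 fold change 0.36, SE 0.28; SD, n = 3 each). Its other probe gave -1.97, -3.50 and -3.91 in Tg and -4.11, -4.50 and -4.47 in WT, without overlap, and did not pass (1.24, SE 0.53; limma, adjusted p = 0.918). Cd53, carried by most leukocytes, was above background on 2 Tg arrays and 1 WT array, with WT replicate 2 at -4.00 and the other arrays between -6.78 and -5.90. Tspan32, of blood cells, gave -3.24 ± 0.32 in Tg and -1.93 ± 1.29 in WT (-1.31, SE 0.66), with WT replicate 3 highest at -0.54 and -0.61 as the fold change without that array. Its second probe gave -0.72 (SE 0.41), while another probe, not tested, was above background on 2 Tg arrays and 0 WT arrays, at -6.66, -1.59 and -3.46 in Tg and -6.61, -6.41 and -7.17 in WT. None of the 3 was called. The summed leukocyte markers were between 4.11 and 6.30 in Tg and between 4.30 and 8.33 in WT, and their part in these values was not tested.

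Tspan7, Tspan3, Tspan4, Tspan31 and Tspan2 gave no call. Tspan7, an X-linked gene best known from neurons, gave 2.57, 2.67 and 2.42 in Tg and 2.78, 3.21 and 2.62 in WT (log2 fold change -0.31, 95% interval -0.93 to 0.30). Tspan3 gave 1.74, 1.70 and 1.42 in Tg and 1.95, 2.10 and 1.91 in WT. Tspan4, which marks the migrasomes that moving cells leave behind, gave -0.90, -1.15 and -1.05 in Tg and -0.84, -0.33 and -0.45 in WT. In Tspan3 and Tspan4 each Tg array lay below each WT array, by -0.36 (SE 0.22) and -0.49 (SE 0.24) on the log2 scale, and neither passed (limma, adjusted p = 0.950 for Tspan3 and 0.933 for Tspan4). Tspan31, which is amplified in some human sarcomas, was at 1.61 ± 0.16 in Tg and 1.74 ± 0.37 in WT (SD, n = 3 each). Tspan2, known from oligodendrocytes, gave -0.18 (SE 0.29), and its dimmer probe -1.25 (SE 0.58).

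In most of the remaining members the arrays of 1 group spread more widely than the groups differed. Tspan6, also X-linked, gave -0.52, 0.18 and -2.02 in Tg and -0.01, 0.54 and 1.02 in WT, with Tg replicate 3 far below the rest (log2 fold change -1.30, SE 0.62). Tspan18, a regulator of calcium entry in endothelial cells, spanned -1.88 to 0.01 in Tg and -2.63 to 1.50 in WT (-0.28, SE 1.10). Tspan13 spanned -4.41 to -3.10 in Tg and -5.27 to -1.92 in WT (0.16, SE 0.90), and Tspan1, an epithelial tetraspanin, -5.37 to -4.44 in Tg and -5.15 to -2.35 in WT (-1.02, SE 0.74). WT replicate 3 was the highest array in each of Tspan1, Tspan6, Tspan13, Tspan18 and Tspan32. It was the highest of the 6 arrays in 9 of the 26 tested members, against 20.7% of all tested genes, and WT replicate 2 was in 8, against 19.6%. Tg replicates 1 to 3 were the highest in 2, 3 and 2 members, against 13.5%, 13.8% and 16.1% of genes, and WT replicate 1 in 2 members, against 16.3%. Tspan9, a tetraspanin of platelets, overlapped between the groups (0.43, SE 0.53). Tspan8, of epithelia and their tumours, lay between -8.54 and -7.90 in Tg and between -8.70 and -8.06 in WT, not well above background on any array.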

How the data were processed

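Melanocyte stem cells of 3 K14-SCF Tg and 3 WT samples were measured on 1-colour Agilent arrays, read with Agilent Feature Extraction 10.7.1.1, per the submitters' processing notes. The intensity read for each spot is the scanner software's processed signal, from which background and spatial trend were removed array by array, per the file headers. Median spot and background intensities and flags came from the same files. A table that the authors deposited holds a linear ratio: each column equals the array's processed signal over 1 constant (1404.6 to 1678 by array, with all values within a tolerance of 0.001), with medians of 0.184, 0.188 and 0.176 for Tg replicates 1 to 3 and 0.170, 0.177 and 0.169 for WT. It is linear and not centred by gene, and how the constant was defined is unknown here.

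Here, log2 processed signals were averaged over a probe's spots without outlier spots or control spots and set against the array's 75th percentile. The probe design refers to build mm9, and probes were named through RefSeq accessions and a table of GRCm38.p6 (28331 of 29786 matched). limma 3.58.1 in R 4.3.3 compared Tg with WT over 47709 probes, without covariates (2-sided, prior 1.91 and residual 4 degrees of freedom), and the steps were tested on simulated data. A probe was well above background where at least 50% of its spots were. The lowest such level per array was the reference for undetected probes, though not a strict bound. Members, lists and tests were chosen with earlier results of these data known. Values by array are printed for members without overlap and at least 1 in log2 size or detected in 1 group alone, for the 5 with the brightest probes and for Cd82 and Tspan10, and beyond this rule for Tspan3, Tspan4, Tspan6, Tspan14 and further probes of Cd37, Cd82 and Tspan32, after their values were seen. Of partners, Adam10 and genes with the smallest p per list are named, and the other genes were chosen after their values were seen. Alternatives changed normalization, background (normexp with an offset of 50), filter, probe choice, slide, row, replicate block and variance, or left out arrays.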

Additional observations from a re-analysis of the deposited data

How the results depend on the processing

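In the 18 other settings tried, 0 tetraspanin genes and 0 partner genes were called, and the lowest adjusted p of any member was 0.134 (Tspan12 in the deposited values). The sign was kept in every setting by 16 of the 26 tested members and by 13 of the 17 other genes followed through the settings. The row, replicate block and variance settings leave every fold change as it was, so they could not turn a sign. The median of the members lay between -0.32 and -0.16 without 1 array in turn, and that of the partner genes between -0.10 and 0.06. Tspan12 had adjusted p-values between 0.134 and 0.726, and it was not tested among probes above background on all 6 arrays.

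Signs turned in these cases, none of them called, and the cause was not tested. Quantile normalization gave 0.0140 for Cd63, median centring -0.0473 for Adam10 and -0.0265 for Lrp5, and normexp with quantile normalization -0.0739 for Tspan13. Slide as a block, which equals leaving out WT replicate 1, gave 0.20 for Cd82, 0.0620 for Tspan10, -0.56 for Tspan13, 0.47 for Tspan15, -0.00388 for Adam10 and -0.0109 for Lrp5. Without both arrays of slide row 2, chosen after seeing the data, values were 0.0146 for Tspan10, 0.61 for Tspan18, 0.11 for Tspan31 and 2.47 for Fzd4. Without 1 array in turn, ranges that held 0 were -0.98 to 0.41 (Cd53), -0.0675 to 0.0101 (Cd63), -0.99 to 0.20 (Cd82), -0.25 to 0.0267 (Cd9), -0.68 to 0.50 (Tspan10), -0.56 to 1.12 (Tspan13), -0.51 to 0.47 (Tspan15), -1.33 to 0.74 (Tspan18), -0.40 to 0.00816 (Tspan2), -0.34 to 0.0244 (Tspan31), -0.00933 to 0.10 (Adam10), -1.66 to 1.15 (Fzd4), -0.0109 to 0.12 (Lrp5) and -0.46 to 0.15 (Ndp). The median level over the members was -0.49 in WT and moved to -0.87 with the mean of all probes of a gene.

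The labels do not say that replicate numbers pair the samples. Deviations of same-numbered Tg and WT arrays correlated at 0.02, 0.05 and 0.13 across probes for numbers 1 to 3. Those of differently numbered arrays correlated at between -0.098 and 0.055. The replicate 3 arrays, which gave 0.13, both lie in row 2 of the slide, so number and row cannot be told apart there. With the replicate block 0 members were called, as without it. Each number holds a Tg and a WT array, so the block cannot change a fold change, and the family median of -0.19 was bound to stay. Signal over background limits Tspan12, Tspan8, Cd53, Tspan15, Tspan33, Fzd4, Itga2 and Cd46.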

Other observations

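Genes of the tetraspanin superfamily that carry other names were left out by the symbol rule, and 3 of 4 were tested. Prph2, whose protein shapes photoreceptor discs, was at -2.35 ± 0.59 in Tg and -3.72 ± 0.70 in WT (SD, n = 3 each), a log2 fold change of 1.37 (SE 0.48). Upk1a, of the bladder lining, was at -2.47 ± 0.53 in Tg and -3.40 ± 0.32 in WT (0.93, SE 0.35). All Tg arrays lay above all WT arrays in Prph2 and Upk1a, as in 5.13% of all tested genes. Neither passed (limma, adjusted p = 0.868 for Prph2 and 0.891 for Upk1a). Both were chosen after their values were seen. Prph2 was at 0.79 with the mean of its probes. Rom1, a partner of peripherin in photoreceptor discs, gave -0.57 (SE 0.65), with overlapping groups. Upk1b was above background on 0 arrays.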
